A study of Homo sapiens with 14 samples.

Results

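The 692 A-to-I sites described here are adenosines read as guanosine in RNA of 293FT cells at positions that lie, on their own strand, in no basic transcript of GENCODE release 29 (GRCh38). They were found by position and strand alone, without use of their levels, among 9770 distinct A-to-I sites and 22358 distinct sites of all changes called in 14 libraries, and made up 7.08% of the A-to-I sites. Basic transcripts are the reduced set of mostly full-length models that GENCODE keeps for each gene. Sites of this kind are usually labelled intergenic. The fuller annotation went against that label: 428 of the 692 sites (61.8%) lay in a transcript of the complete GENCODE set on the same strand, and 251 of the remaining 264 lay inside the RefSeq span of a gene that neighbours them on the strand. That left 13 sites (1.88%) matched to neither annotation, so the sites are called here A-to-I sites outside basic transcripts. RefSeq was looked up only under the GENCODE symbols of nearby genes, so a gene listed there under another name would be missed.

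293FT is a line of human embryonic kidney cells with the large T antigen. The study asked whether a prime editor changes bases in RNA independently of its guide. Cells were given hA3A-BE3 (3 libraries), a cytosine base editor that joins human APOBEC3A to a Cas9 nickase, or PE3 (2 libraries), a Cas9 nickase joined to a reverse transcriptase and used with a second nicking guide. The 9 control libraries were cells given Cas9, cells given EGFP and non-transfected cells, 3 libraries each. All sample names carry hRNF2, and per the labels' protocols the brightest 15% of cells by fluorescence were sorted 40 h after transfection and their total RNA, depleted of ribosomal and globin RNA, was read as stranded pairs of 150 bases. Nothing in the labels ties replicates to separate cultures, so the p-values measure only how far these libraries differ, which may be technical. The labels also do not say how non-transfected cells were treated at the fluorescence sort.

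Adenosine is deaminated to inosine by ADAR enzymes, which bind double-stranded RNA, and inosine pairs like guanosine, so that an edited base reads as G. In human RNA most editing falls in Alu elements, repeats derived from the signal recognition particle RNA, when a pair of them in opposite orientation folds into a hairpin. Such pairs are common in introns and 3' untranslated regions, and a hairpin usually carries many edited adenosines. Neither editor studied here contains an adenosine deaminase. No DNA reads of the cells were used, so a G in the genome cannot be told apart from complete editing at any of these sites.

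The bases around a site could be read where the site fell in an exon of a transcript outside the basic set, which held 146 sites (21.1%). Over the 146 exonic sites, the reference base was adenosine in the transcript in 146 of 146. The base before the edited adenosine was G at 14 sites (9.59%), C at 52 (35.6%), A at 43 (29.5%) and T at 37 (25.3%). The base after it was G at 65 sites (44.5%), more often than any other base. The 5764 exonic A-to-I sites inside basic transcripts had G before the site at 7.70% and G after it at 44.1%. A C-to-U site, by contrast, had T before it at 93.9% of 10389 exonic sites. The C-to-U sites were pooled over all libraries, so they are not a background of cells without an editor. Calls of all changes other than A-to-I numbered 2756, 5356 and 6774 in the hA3A-BE3 libraries. They numbered 235 to 375 in the other libraries. The shares of neighbouring bases are descriptions without a test, since neighbouring sites share their sequence. ADAR enzymes are known for a low share of G before the site and a high share of G after it. The bases around all adenosines of these exons were not counted, and which enzyme acted at these sites was not tested.

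Windows of 150 bases on either side of the exonic sites were also aligned with RN7SL1, the signal recognition particle RNA from which Alu elements derive. The window held an alignment of at least 50 bases for 69 of 146 sites (47.3%), of which 39 ran on the same strand and 30 on the other. The share was 65.0% of the 5764 exonic A-to-I sites inside basic transcripts and 2.02% of the 10389 exonic C-to-U sites, the same pooled set. By gene, 14 of 32 TIMM50 sites matched on the same strand, 8 of 15 XRCC2 sites on the other strand, 10 of 17 HELLS sites on the same strand, and none of 9 TOP3A or 8 SNX1 sites. A site without a match is only one whose window did not align to this 1 RNA.

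Most of the sites lay a short way past the end of a gene as set by its basic transcripts. Gene ends here and below are those of basic transcripts, and 428 of the sites lay in a transcript outside the basic set. The nearest basic gene on the strand was upstream of the site, so that the site was downstream of a gene end, for 617 sites (89.2%), while 75 (10.8%) lay before a gene start. The median distance was 1108.5 bases over all 692 sites, with quartiles of 639.25 and 2130.5 bases and a range of 2 to 70830. It was 1117 bases for sites past an end and 740 bases for sites before a start. Within 1 kb of the nearest gene lay 306 sites (44.2%), within 5 kb 644 (93.1%) and within 10 kb 671 (97.0%), which left 21 sites farther away. The same picture held in each library: between 89.0% and 95.7% of its sites were past a gene end, and its median distance was between 743 and 1091.5 bases. The nearest gene coded for a protein at 595 sites (86.0%), and 79 genes in all were nearest neighbours.

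**Figure D1:**
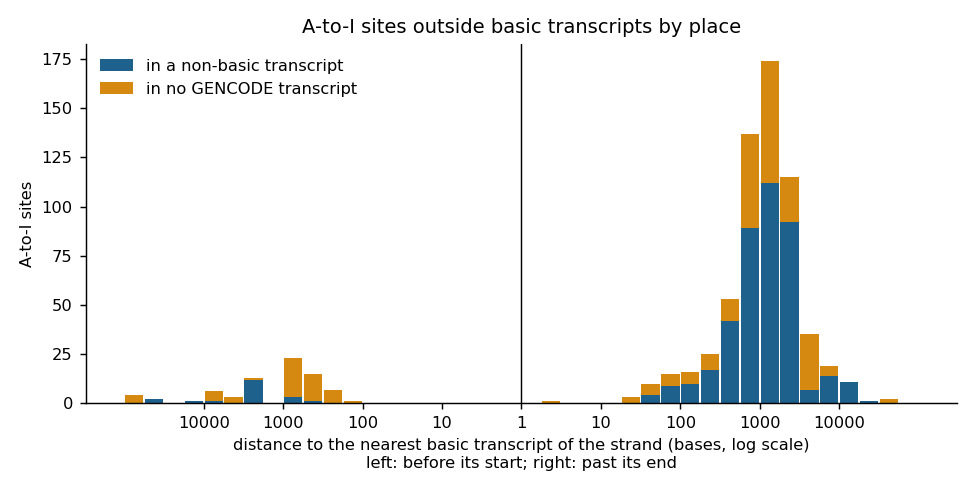
Number of A-to-I sites outside basic transcripts (vertical axis) by distance in bases on a log scale to the nearest basic transcript of the strand (horizontal axis), before its start on the left and past its end on the right. Blue bars are sites in a GENCODE transcript outside the basic set and orange bars sites in no GENCODE transcript; the tallest bars stand on the right, near the median of 1117 bases past a gene end.

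Where a site lay in a transcript outside the basic set, that transcript belonged to the nearest gene in 358 of 428 cases (83.6%). None of the sites lay in coding sequence of such a transcript, 88 lay in its untranslated regions and 282 in its introns. RefSeq spans, compared by gene symbol, took in 513 of the 692 sites (74.1%). Of the 13 sites matched to neither annotation, 4 lay far before AL713965.1 (70807 to 70830 bases). The others were 3 each past the ends of ABCF3 and FAM173B, and 1 each near AC005332.3, AC006329.1 and HUS1. None of the 13 was called in more than 2 libraries.

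Genes on the other strand were rare. Of the 692 sites, 13 (1.88%) faced a basic transcript on the opposite strand. Of these, 12 faced LRRC37A16P, an annotated pseudogene on chromosome 17, 11 of them in 1 group at chr17:68126014-68126248 on the plus strand, 418 to 652 bases before AC005332.6. The remaining site lay 329 bases past the end of ENTPD7, opposite AL133353.2. The RefSeq span of LINC00674 took in all 11 sites of the LRRC37A16P group, and their mean levels stayed low, at 8.27% or less.

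Among neighbours of particular kinds, 23 sites (3.32%) were nearest to a gene whose symbol starts with ZNF, the zinc-finger family, against 646 of 57160 basic genes (1.13%) with such a symbol. Of the 23 sites, 16 came from 1 gene, ZNF514, and the others from ZNF573, ZNF518A and ZNF354B. A share of sites and a share of genes are unlike measures, so no excess is read from them. Small nucleolar RNA genes were nearest to 13 sites, 7 at SNORA40, which lies within TAF1D, a subunit of the initiation factor of RNA polymerase I, and 6 at SNORD89, which lies within RNF149, and the transcripts that held these sites were those of the hosts. No site was nearest to a microRNA gene, to RNF2, or to ADAR, ADARB1 or ADARB2, the genes of the ADAR family.

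The sites came in groups. Chained on 1 strand by gaps of at most 1000 bases, they formed 89 groups, and 662 sites (95.7%) had at least 1 partner. The 18 groups with 10 or more sites held 493 sites (71.2%), and the 10 largest held 380 (54.9%). Sites of 1 group share a transcript, so they are not independent observations of editing.

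The largest group, with 67 sites, lay 569 to 5815 bases past the end of GNL3L, which encodes a nucleolar GTP-binding protein (chrX:54561640-54566886, plus strand). None of its sites was in a GENCODE transcript, and all 67 lay in the RefSeq span of GNL3L. Per library, 10, 4 and 8 of these sites were called in hA3A-BE3 cells, 4 and 4 in PE3 cells, 2, 11 and 22 in Cas9 cells, 19, 3 and 23 in EGFP cells and 9, 16 and 23 in non-transfected cells. The counts differed widely within each control group, and 32 of the 67 sites were called in only 1 library. The site at chrX:54563297 was the only one of the group called in all 14 libraries.

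VHL, the tumour suppressor whose protein marks hypoxia-inducible factors for degradation, was followed by 57 sites between 2 and 1199 bases past its end (chr3:10152222-10153419, plus strand). All lay in the RefSeq span of VHL and none in a GENCODE transcript. Per library, 19, 25 and 23 sites were called in hA3A-BE3 cells, 11 and 32 in PE3 cells, 14, 15 and 29 in Cas9 cells, 27, 29 and 28 in EGFP cells and 24, 22 and 11 in non-transfected cells. The groups overlapped, with the highest count in PE3 replicate 3 and the lowest shared by PE3 replicate 2 and non-transfected replicate 3. At 4 of its sites a call was made in all 14 libraries.

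RRP36, a factor of ribosomal RNA processing, was followed by 55 sites at 49 to 3636 bases (chr6:43029646-43033233, plus strand), all in RRP36 transcripts outside the basic set and only 1 of them exonic. No RRP36 site was called in all libraries. Past TOP3A, a DNA topoisomerase that unlinks recombination intermediates, lay 34 sites at 37 to 2118 bases (chr17:18271803-18273884, minus strand), all in TOP3A transcripts outside the basic set.

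The tightest of the large groups belonged to TAF13, a subunit of the general transcription factor TFIID: 34 sites within 197 bases, 417 to 613 bases past the end (chr1:109063527-109063723, minus strand). All were in a TAF13 transcript outside the basic set and none in the RefSeq span of a gene compared by symbol. Per library, 12, 19 and 17 sites were called in hA3A-BE3 cells, 11 and 16 in PE3 cells, 21, 17 and 16 in Cas9 cells, 19, 24 and 17 in EGFP cells and 17, 16 and 18 in non-transfected cells. The treatments overlapped, and 5 of the sites were called in all 14 libraries, more than in any other of the 10 largest groups.

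TIMM50, a subunit of the import machinery of the inner mitochondrial membrane, had 32 sites at 660 to 2010 bases (chr19:39491548-39492898, plus strand), all exonic in TIMM50 transcripts outside the basic set. A further 32 sites at chr17:41851597-41852728 on the minus strand lay 817 to 1948 bases past the end of KLHL11, a Kelch-like adaptor of ubiquitin ligases. KLHL11 was the nearest basic gene of 9 of them, and AC125257.1, which starts further on, of the other 23. The RefSeq span of KLHL11 took in all 32. SLC35F5, of the solute carrier family, had 29 sites at 2092 to 2946 bases (chr2:113709846-113710700, minus strand), LZIC, a small leucine-zipper protein, 22 sites at 78 to 1561 bases (chr1:9927378-9928861, minus strand), and TIMM29, a subunit of the TIM22 import complex, 18 sites at 365 to 710 bases (chr19:10930619-10930964, plus strand).

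**Figure D2:**
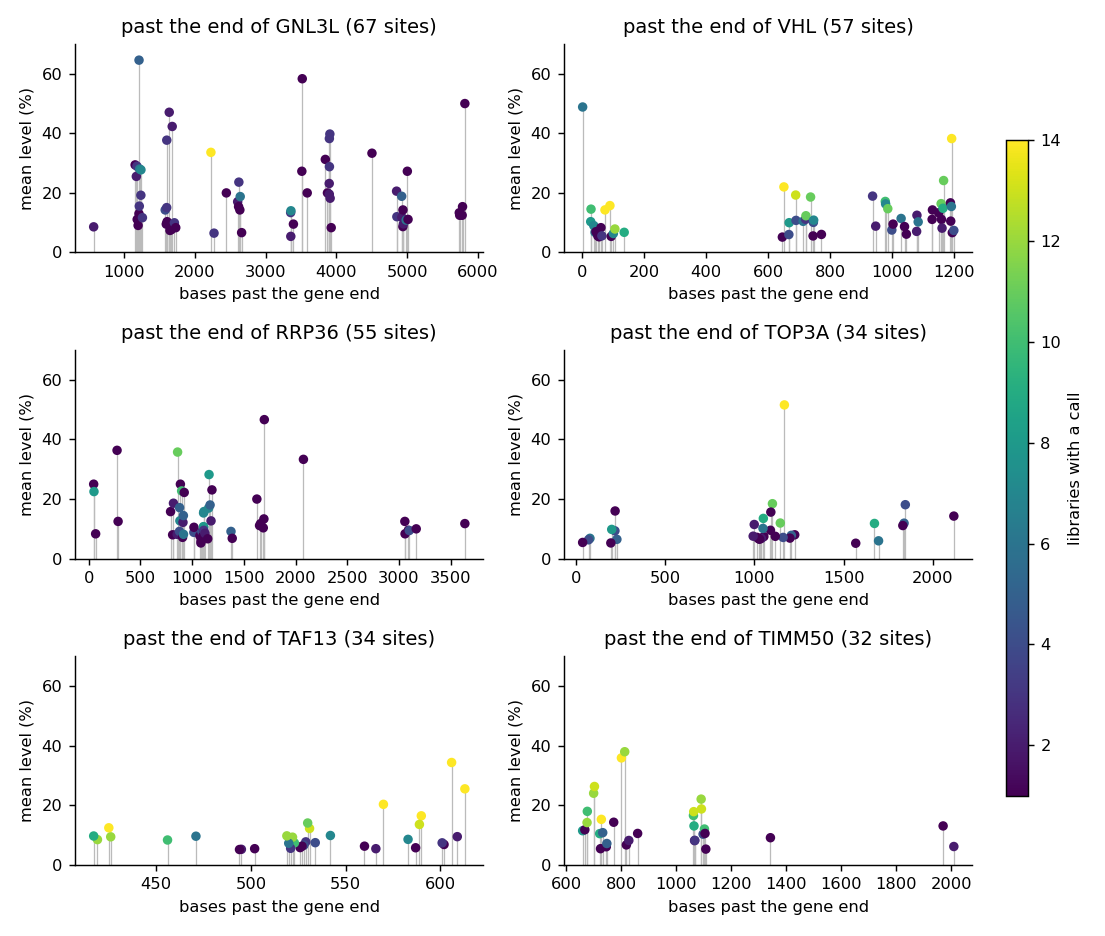
Mean level in percent over the libraries with a call (vertical axis) of every site in the 6 largest groups with their own gene end nearest, by bases past that end (horizontal axis); colour gives the number of the 14 libraries with a call. Sites bunch along the sequence, most stay under 40%, and TAF13 packs 34 sites into 197 bases.

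TIMM29 sites were unevenly called. Per library they numbered 3, 2 and 1 in hA3A-BE3 cells, 3 and 13 in PE3 cells, 4, 4 and 7 in Cas9 cells, 3, 8 and 1 in EGFP cells and 1, 0 and 0 in non-transfected cells. PE3 replicate 3 stood highest and non-transfected cells lowest, but PE3 replicate 2 lay within the EGFP counts, and no test was made on this group of sites.

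Of the other genes with many sites past their ends, AL138759.1 had 17, which lay in exons of HELLS, a chromatin remodeller, and FUT11, a fucosyltransferase, had 17. ACBD7, an acyl-CoA-binding protein, and ZNF514 had 16 each, and HOMER2, a scaffold protein of the Homer family, had 13. The ZNF514 sites lay in introns of MRPS5 transcripts outside the basic set, and all 16 lay in the RefSeq span of ZNF514. They were called in few libraries. Per library, 0, 3 and 12 were called in hA3A-BE3 cells and none in PE3 or Cas9 cells. EGFP cells had 2, 0 and 0 and non-transfected cells 0, 8 and 2. No ZNF514 site was called in more than 3 libraries. A site that is missing from a list was unedited, too thinly covered or under the limits of the caller, so a count of 0 is not a level of 0.

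Recurrence across libraries was limited. Of the 692 sites, 338 (48.8%) were called in 1 library only, 283 in 2 to 9 libraries and 71 in 10 or more, with 18 (2.60%) in all 14. The 9074 A-to-I sites inside basic transcripts had 4829 (53.2%) in 1 library and 120 (1.32%) in all 14. Sites in 1 library had a median mean level of 11.1% over a median of 21 covering reads, sites in 2 to 9 libraries 11.25% over 25 reads, and sites in 10 or more 17.8% over 32.5 reads. Depth and recurrence thus moved together, and the part of depth was not tested here. Over all 692 sites the median of the mean level was 11.8%, 546 sites stayed under 20%, and 22 reached 50% or more.

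Levels at the 18 sites called in every library spanned a wide range. The highest was the site at chr7:152645914, 590 bases past the end of XRCC2, which encodes a protein of recombinational DNA repair. It read 93.1%, 93.1% and 95.9% in hA3A-BE3 cells, 83.3% and 82.8% in PE3 cells, 85.2%, 95.2% and 97.1% in Cas9 cells, 100% in each of the EGFP libraries and 88.1%, 96.7% and 90.9% in non-transfected cells. Both PE3 values lay below all 9 control values, but the PE3 values rested on 6 and 29 reads, with exact (Clopper-Pearson) 95% intervals of 35.9% to 99.6% and 64.2% to 94.2%. Such intervals cover counting error only, since reads without molecular identifiers are not independent molecules.

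Next came the SLC35F5 site at chr2:113710062, with 46.9%, 76% and 75% in hA3A-BE3 cells, 70% and 71.4% in PE3 cells, 72.2%, 80% and 73.3% in Cas9 cells, 78.9%, 75% and 77.8% in EGFP cells and 56.8%, 66.7% and 71.8% in non-transfected cells. The groups overlapped, and hA3A-BE3 replicate 1 was the lowest. The KLHL11 site at chr17:41852216 read 66.7%, 57.9% and 57.4% in hA3A-BE3 cells, 91.7% and 45.2% in PE3 cells, 48.7%, 35.7% and 51.4% in Cas9 cells, 70.6%, 81% and 62.1% in EGFP cells and 50%, 52.8% and 46.2% in non-transfected cells. The highest value was that of PE3 replicate 2, over 12 covering reads, and the other PE3 library, over 31 reads, lay within the control values. The TOP3A site at chr17:18272753 averaged 51.6% ± 12.8 (SD over 14 libraries). It was highest in PE3 replicate 2, at 80% of 10 reads. From the SLC35F5 site down, neighbours in the order of mean levels overlapped in their values, while every XRCC2 value lay above every SLC35F5 value.

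Among the sites called in every library, the most deeply covered were a pair of VHL sites 16 bases apart, at 74 and 90 bases past the gene end. The site at chr3:10152310, covered by 84 to 218 reads, read 10.7%, 15.7% and 16.97% in hA3A-BE3 cells, 17.9% and 18.9% in PE3 cells, 13.1%, 14.9% and 10.4% in Cas9 cells, 19.2%, 18.8% and 22.1% in EGFP cells and 13.2%, 14.3% and 14.4% in non-transfected cells. At this depth the counting interval was still broad, for example 12.2% to 22.6% for the 218 reads of hA3A-BE3 replicate 3. The site at chr3:10152294 averaged 16.8% ± 2.17 in hA3A-BE3 cells (SD, n = 3), 11.9% ± 3.73 in PE3 cells (SD, n = 2) and 13.99% ± 5.52 in controls (SD, n = 9).

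Further sites in every library gave means over the 14 libraries of 38.2% ± 13.3 and 22.0% ± 6.65 for VHL at chr3:10153412 and chr3:10152871. TIMM50 gave 35.9% ± 13.5 and 15.3% ± 5.04, GNL3L 33.6% ± 7.99, the second SLC35F5 site 32.2% ± 6.36 and the second XRCC2 site 24.2% ± 11.6. The TAF13 sites ran through 34.3% ± 9.97, 25.5% ± 7.15, 20.3% ± 7.99, 16.4% ± 6.66 and 12.4% ± 3.73, though all 5 lie within 197 bases of each other. The highest and the lowest of these TAF13 means differed by more than either SD. Sites next to each other in this order differed by less than the larger of their SDs.

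**Figure D3:**
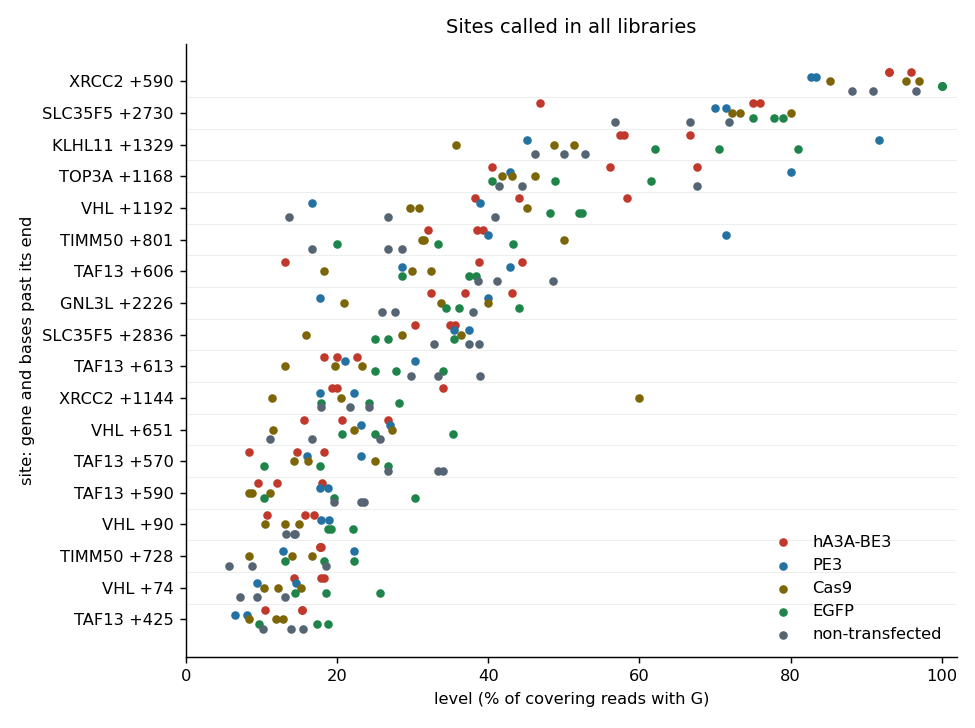
Level in percent of covering reads (horizontal axis) at each of the 18 sites called in all 14 libraries (rows, named by gene and bases past its end), with 1 point per library coloured by treatment. hA3A-BE3 and PE3 points overlap the control points in most rows; in the top row, XRCC2 at 590 bases, both PE3 points (83.3% and 82.8%) lie left of the control points.

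A few sites had levels of 75% or more where they were called. No DNA reads were used, so these levels cannot be told apart from a G in the genome. The HOMER2 site at chr15:82842397 read 88.2% and 75% in hA3A-BE3 replicates 2 and 3, 100% in Cas9 replicate 3, 100% in EGFP replicate 2 and 84.2% in non-transfected replicate 2, over 17 to 20 reads, and was not called in PE3 cells. The ZNF514 site at chr2:95145425 read 94.4% in hA3A-BE3 replicate 3, 100% in EGFP replicate 1 and 87.5% in non-transfected replicate 2, over 14 to 18 reads. In all, 5 of the 692 sites reached 90% in some library. The low depth leaves wide intervals, for example 50.9% to 91.3% for the HOMER2 site in hA3A-BE3 replicate 3.

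The number of these sites per library in hA3A-BE3 and PE3 cells did not differ from the pooled controls beyond the test. It was 151, 170 and 192 in hA3A-BE3 cells, 70 and 171 in PE3 cells, 132, 120 and 232 in Cas9 cells, 215, 163 and 211 in EGFP cells and 181, 172 and 172 in non-transfected cells. Only PE3 replicate 2 lay outside the control range, and it was the shallowest library, with 3.26 Gb of mapped bases against 5.44 to 10.6 Gb in controls (mapped bases were inferred from the depth columns). On the scale of log2(sites + 1), the mean difference was -0.031 for hA3A-BE3 against controls, a fold of 0.979 with a 95% interval of 0.726 to 1.35 (two-sided exact permutation test, p = 0.873, adjusted p = 0.873 by Benjamini-Hochberg over 10 comparisons). For PE3 against controls it was -0.66, a fold of 0.632 with an interval of 0.305 to 1.42 (exact permutation p = 0.145, adjusted p = 0.455). The smallest p these designs allow is 0.00909 for 3 against 9 libraries and 0.0364 for 2 against 9. A single comparison at these values could not pass alone over 10 comparisons, so the lack of a call does not show equal numbers. Without PE3 replicate 2 the PE3 difference was -0.024. Per Gb there were 20.8, 28.9 and 21.7 sites in hA3A-BE3 cells and 21.5 and 22.5 in PE3 cells, against 17.9, 22.1 and 21.8 in Cas9 cells, 31.3, 23.2 and 27.8 in EGFP cells and 25.2, 25.3 and 25.96 in non-transfected cells. On that scale every Cas9 library lay below every EGFP and non-transfected library, with an exact permutation p of 0.1 for Cas9 against EGFP, the smallest that 3 against 3 allows (adjusted p = 0.4).

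**Figure D4:**
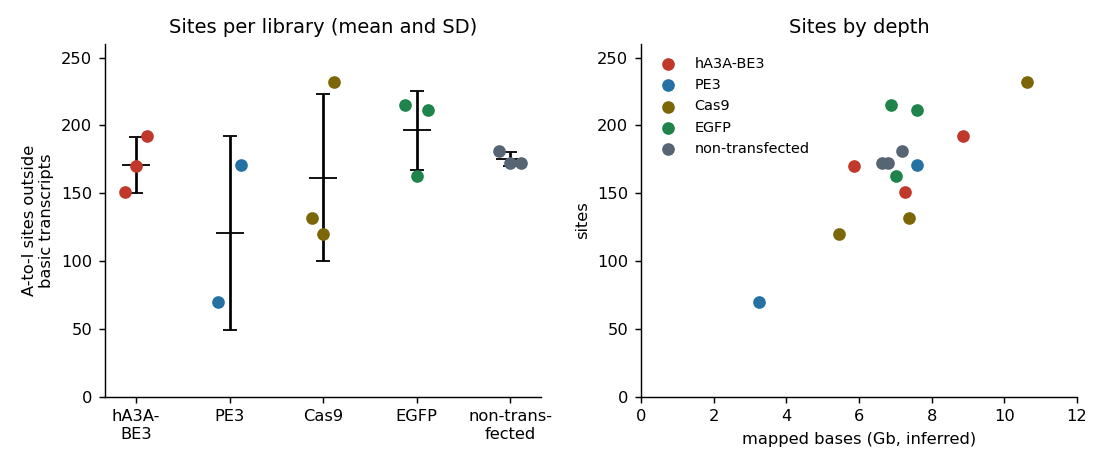
Left, number of A-to-I sites outside basic transcripts per library (points) with mean and SD (bars) by treatment. Right, the same numbers (vertical axis) against inferred mapped bases in Gb (horizontal axis); the lowest point, 70 sites, is the PE3 library with 3.26 Gb and the highest, 232 sites, the Cas9 library with 10.6 Gb.

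Numbers of sites followed depth across the 14 libraries, with Pearson's r = 0.806 (permutation p = 0.00122, adjusted 0.00732 over 6 correlations) and Spearman's rho = 0.554 (permutation p = 0.0428, adjusted 0.0855). Without the libraries farthest from the median depth, Cas9 replicate 3 and PE3 replicate 2, r was 0.445 (permutation p = 0.146) and rho 0.291 (permutation p = 0.361), so the relation rested on those libraries. Within the 9 controls r was 0.692 (exact permutation p = 0.0203, adjusted 0.0608) and rho 0.544 (exact permutation p = 0.136).

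Against Cas9 cells alone, the fold in number of sites was 1.10 for hA3A-BE3 (exact permutation p = 0.7) and 0.711 for PE3 (exact permutation p = 0.6). It was 0.793 for Cas9 against EGFP and 1.11 for EGFP against non-transfected cells (exact permutation p = 0.4 for each, adjusted p = 0.7 for all 4 by Benjamini-Hochberg). These designs cannot go below 0.1 with 3 against 3 libraries or 0.2 with 2 against 3.

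The share of a library's A-to-I sites that lay outside basic transcripts was narrow. It averaged 7.97% ± 0.414 in hA3A-BE3 cells (SD, n = 3), 8.04% ± 0.048 in PE3 cells (SD, n = 2) and 8.499% ± 0.494 in controls (SD, n = 9). The differences from controls, -0.52 percentage points for hA3A-BE3 (exact permutation p = 0.109) and -0.46 for PE3 (exact permutation p = 0.182), did not pass after Benjamini-Hochberg adjustment (adjusted p = 0.455 for both). The share of the sites that faced a gene on the other strand averaged 0.566% in hA3A-BE3 cells, 0.877% in PE3 cells and 1.36% in controls (exact permutation p = 0.0909 and p = 0.473, adjusted p = 0.455 and 0.788), and it rests on at most a handful of sites per library.

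Levels in hA3A-BE3 and PE3 cells did not differ from those of the pooled controls beyond the test either. A single comparison at the smallest p its design allows could not pass alone over 10 comparisons, so this does not show equal levels. The mean level over the 18 sites of every library was 34.3% ± 3.21 in hA3A-BE3 cells (SD, n = 3), 35.1% ± 3.07 in PE3 cells (SD, n = 2) and 33.9% ± 2.86 in controls (SD, n = 9). Against controls, the difference was 0.43 percentage points for hA3A-BE3, with a 95% interval of -4.30 to 4.79 (exact permutation p = 0.791, adjusted p = 0.873 by Benjamini-Hochberg), and 1.23 for PE3, with an interval of -5.12 to 7.24 (exact permutation p = 0.582, adjusted p = 0.831). The 3 control treatments themselves did not overlap in this mean level, which was 30%, 31.9% and 31.7% in Cas9 cells, 37.5%, 36.8% and 38.04% in EGFP cells and 32.7%, 33.4% and 32.8% in non-transfected cells. These differences among controls were seen after the values were known and were not tested. Both hA3A-BE3 and PE3 libraries lay within the span of the controls. The test and its intervals treat the 9 controls as interchangeable and do not allow for differences among the control treatments. Taken over all its sites, the median level of a library was 12.5%, 14.9% and 12.4% in hA3A-BE3 cells, 22.2% and 11.8% in PE3 cells and 9.90% to 15.9% in controls, with a median of 13.04%. PE3 replicate 2, the only value outside the control range, had a median of 11 covering reads per site, against 19.5 to 37 in controls. Without that library the PE3 difference in median level was -1.17 percentage points in place of 4.06, and the 4.06 did not pass the test (exact permutation p = 0.291, adjusted p = 0.582).

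Single sites were compared over all 138 A-to-I sites called in every library, of which 18 lay outside basic transcripts. After adjustment over the 138 sites by Benjamini-Hochberg, 0 sites passed for hA3A-BE3 and 0 for PE3 (0% of 138 in both). A site at the smallest p its design allows, 0.00909 for hA3A-BE3 or 0.0364 for PE3, could not pass alone over 138 sites. The 0 therefore does not show that levels at single sites were the same. At an unadjusted exact permutation p under 0.05, hA3A-BE3 against controls called 3 sites (2.17%), none of them outside basic transcripts. PE3 against controls called 11 sites (7.97%), of which 8 were higher in PE3 cells, and 2 of the 18 were among the lower ones; both comparisons use the same 9 controls. The 2 sites were the XRCC2 site at chr7:152645914, at 83.0% in PE3 cells against 94.8% in controls (a difference of -11.7 percentage points), and the TAF13 site at chr1:109063715. That TAF13 site read 6.45% and 8.05% in PE3 cells, against 12.8%, 8.33% and 11.9% in Cas9 cells, 18.8%, 17.3% and 9.59% in EGFP cells and 15.5%, 13.8% and 10.2% in non-transfected cells, a difference of -5.89 percentage points. At both sites the PE3 values lay below every control value, at the smallest p that 2 against 9 allows, 0.0364 by the exact permutation test (adjusted p = 0.456). The median difference over the 18 sites was -0.04 percentage points for hA3A-BE3 and -0.30 for PE3, beside 0.33 and 2.78 over all 138 sites. Each of the 138 sites had to be called in PE3 replicate 2, the shallowest library. That library had a median of 11 covering reads per site outside basic transcripts, and no listed site had fewer than 2 mutated reads. The part of this condition in the PE3 differences was not tested. No level under 5.02% appears in the lists, so lower levels are not seen.

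Within each library, A-to-I sites lay outside basic transcripts more often than sites of the other changes did. The libraries come from 1 cell line and share many sites. The p-values of these within-library tests therefore measure repetition over libraries, not variation over sites or groups of sites. The mean share over the 14 libraries was 8.32% ± 0.488 of A-to-I sites and 3.26% ± 1.79 of the others, a mean difference of 5.06 percentage points that was positive in 14 of 14 libraries (two-sided exact permutation by sign flips, p = 0.000122, the smallest the flips can give; Benjamini-Hochberg adjusted p = 0.000163). In hA3A-BE3 cells the share of the other changes was 0.840% to 0.886%, in PE3 cells 1.28% and 2.02%, and in controls 2.93% to 5.71%. Over all libraries, 141 of 12588 sites of other changes lay outside basic transcripts, among them 64 of 10609 C-to-U sites (0.603%) and 42 of 726 T-to-C sites (5.79%).

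The sites outside basic transcripts also differed from the other A-to-I sites of the same libraries, with the same limit on the p-values. The 10 largest groups held 54.9% of the sites, so a trait of a few groups can recur in every library. A further A-to-I site of the library lay within 100 bases on the strand for 86.4% ± 3.31 of them and for 79.9% ± 4.43 of the others (SD, n = 14), a difference of 6.52 percentage points in 14 of 14 libraries (exact permutation p = 0.000122, adjusted p = 0.000163). Their median level was lower, at 13.6% against 15.1%, a difference of -1.48 percentage points that was negative in 13 libraries and 0 in 1 (exact permutation p = 0.000244, adjusted p = 0.000244). Their median coverage was higher, at 26.2 against 22.9 reads, in 14 of 14 libraries (exact permutation p = 0.000122, adjusted p = 0.000163). Coverage moved with the level, and its part in the lower levels was not tested. Among sites with 50 or more covering reads the level difference was -0.20 percentage points (exact permutation p = 0.448). For the 21 sites more than 10 kb from a gene of the strand, the share against other changes differed by -0.25 percentage points and the share with a close neighbour by -49.2.

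**Figure D5:**
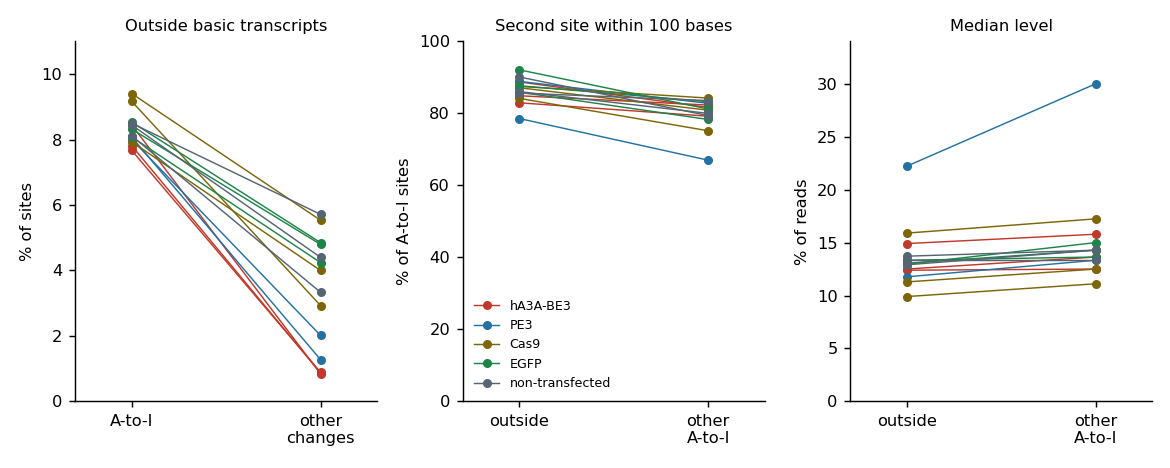
Paired values of each of the 14 libraries (lines, coloured by treatment). Left, percent of sites outside basic transcripts, A-to-I against other changes; middle, percent of A-to-I sites with a second one within 100 bases, outside basic transcripts against the other A-to-I sites; right, median level in percent, outside basic transcripts against the other A-to-I sites. The left value is higher in all 14 libraries in the first and second panels and lower or equal in the third.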

How the data were processed

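Each library had a list of called sites. The submitters' processing notes name the aligner BWA 0.7.17 and, as builds, hg38 and GRCh38, without their roles (caller of sites and filters not given in the sources used here). Deposited by the authors were counts of covering reads, of reads per base and of mutated reads, each base's fraction of the covering reads, and a depth signal divided by a constant per library, read here as mapped bases in Gb. That reading, the strand and the order of the base columns were inferred from the values. The lowest values listed were 2 mutated reads, a level of 5.02% and 3.01 reads per Gb. PE3 replicate 1 was not analysed here. A level is the edited fraction in percent.

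Sites were placed by strand on GENCODE release 29, and 4 A-to-I sites on contigs without annotation were left out. RefSeq spans (GRCh38.p14), given without strand, were matched by symbol, with an entry found for the nearest gene of 604 sites. Groups were compared on values per library by two-sided exact permutation tests, with Benjamini-Hochberg adjustment at 0.05 and 95% intervals of the shifts not rejected. The tests were tested on simulated data. Python 3.11.15, scipy 1.17.1, pandas 2.3.3 and BLAST 2.17.0 (E-value limit 1e-05) were used. Named were the 12 sites called in most libraries (ties by coverage) and the 10 largest groups of sites. Also named were 5 further genes with most sites past their end, and RNF2. The other sites of all libraries, XRCC2, HOMER2, ZNF514 and TAF1D details and the sites matched to neither annotation were picked after their values were seen. Members and lists were chosen with earlier results of these data known. Alternatives were stricter limits, other definitions of the sites, other scales, leaving out each library and a block by replicate number; those on distance and place were chosen after seeing the data. Stretches of sequence around the sites are not reported here.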

Additional observations from a re-analysis of the deposited data

Results flagged for a closer look

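One value stood apart from the others of its kind. At the XRCC2 site at chr7:152645360, the 9 control libraries had a highest level of 60% (Cas9 replicate 2), whose gap to the nearest other control took 0.653 of the whole range. It rests on 6 of 10 covering reads, with an exact 95% interval of 26.2% to 87.8% that covers counting error only. In the other 8 controls the level was between 11.3% and 28.2%. Among the 17 sets of values looked at in this way, chance flags about 1 in 20.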

How the results depend on the processing

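Differences below are on the log2 scale for numbers of sites and in percentage points for shares and levels, and for each result that turned or lost its call the cause was not tested. No difference between treatments passed the adjusted threshold, which says nothing of stability, since a single comparison at the smallest p its design allows could not pass alone. Several differences turned in sign. For hA3A-BE3 against controls, the number of sites differed by 0.019 at 20 or more covering reads, 0.13 at 50 or more, 0.033 at 5 or more mutated reads and 1.25 more than 10 kb from genes; the share by 1.60 at 50 reads, 0.026 at 5 mutated reads and 0.086 beyond 10 kb; the median level by -0.029 at 50 reads, -0.55 at levels of 10% or more, -1.94 at 5 mutated reads and -9.54 beyond 10 kb; the level at shared sites by -1.12 at 50 reads, and the share facing a gene by 0.15 at 10%. For PE3 against controls, the median level differed by -0.72 and the shared level by -1.72 at 20 reads, and the share by 2.14 at 50 reads. Numbers of sites differed by -0.092 for hA3A-BE3 against Cas9 and 0.31 for Cas9 against EGFP at 50 reads, by 0.17 for PE3 against Cas9 and -0.53 for EGFP against non-transfected cells beyond 10 kb, and by 0.10 for PE3 against Cas9 per Gb. Within libraries, beyond 10 kb (21 sites) the differences were -0.25 for the share against other changes, -49.2 for close neighbours, 5.42 for the median level and -5.69 reads for coverage; at 50 reads the level difference was -0.20 (exact permutation p = 0.448) and the coverage difference 5.64 reads (exact permutation p = 0.35), and at 5 mutated reads the difference in close neighbours was 4.86 (exact permutation p = 0.0709). The correlation with depth was 0.476 at 10% and 0.094 beyond 10 kb. At 50 reads 83.5% of sites lay past a gene end, at a median distance of 652 bases. Of the sizes of the 10 largest groups, 16 values under stricter limits moved by over 1.5 times. Leaving out each library in turn, the hA3A-BE3 difference in number of sites ran from -0.12 to 0.055, in median level from -0.49 to 0.77 and in shared level from -0.60 to 2.28; the PE3 difference in median level ran from -1.17 to 9.29, in shared level from -1.21 to 3.19 and in the share facing a gene from -1.36 to 0.40; the number of sites ran from -1.13 to 0.15 for PE3 against Cas9 and from -0.040 to 0.43 for hA3A-BE3 against Cas9. Where 1 PE3 library was left out, the lone one had no spread of its own.

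No sign of pairing by replicate number was seen. Over the 138 shared sites, deviations of same-numbered libraries correlated between -0.17 and 0.16 in 26 pairs, with 3 over 0.1. Differently numbered libraries correlated between -0.19 and 0.22 in 52 pairs, with 7 over 0.1. Deviations were taken from means of only 2 or 3 libraries, so the check cannot settle whether libraries were paired. With the replicate number as a block, the differences were -0.031 for hA3A-BE3 and -0.67 for PE3 in number of sites, and no call changed. The shared level had no value beyond 10 kb, nor the share facing a gene once sites facing genes were removed. Depth sets the limits: a median of 11 to 37 covering reads per site cannot resolve levels finely, and PE3 has 2 libraries.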
